A study of Rattus norvegicus with 20 samples.

Results

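The iron-dependent dioxygenases and demethylases are enzymes that use ferrous iron, molecular oxygen and 2-oxoglutarate to oxidise proteins, nucleic acids or small molecules. With earlier results of these data known, members were chosen by gene symbol from the symbols in the authors' deposited tables: the Kdm2 to Kdm8, Alkbh, Egln, P4ha and Plod families and a set of single genes, without Kdm5d. This gave 42 RefSeq transcript accessions with 40 symbols, among the 18288 accessions counted in each library. By role they comprised 3 oxygen-sensing genes, 10 accessions of collagen hydroxylases, 15 of histone demethylases and related JmjC genes, 9 of RNA and DNA dealkylation genes and 5 of other function. Of these, 36 had enough reads to be tested in at least 1 comparison and 6 in none. Of the genes that the rule names, Tet1, Tet2, Tet3, Asph and Egln1 were not analysed here, and Riox1 and Riox2 were examined apart from the members.

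RNA had been measured in 20 poly(A) libraries of male Fischer344/Jcl rats, an inbred strain with no engineered allele named in the labels. From day 21 to day 39 of age they were fed either AIN-93G, the standard diet, or a diet low in iron, and tissue was taken at 13 weeks; the labels do not say what they ate between those times. The prefrontal cortex and the nucleus accumbens, a ventral striatal region, were each represented by 5 libraries of either diet: cortex standard, cortex low-iron, accumbens standard and accumbens low-iron. Whether libraries of a group, or cortex and accumbens libraries of the same number, came from separate animals is not stated; the p-values then rest on the spread among these libraries alone, and that spread may be technical.

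In these enzymes the iron atom sits in the active site, where it binds 2-oxoglutarate and oxygen, and ascorbate keeps it in the ferrous form. Prolyl hydroxylases of the Egln family mark the alpha subunits of hypoxia-inducible factor (HIF) for destruction when oxygen and iron are present. Other members hydroxylate collagen, remove methyl groups from histone lysines, or remove methyl groups from RNA and DNA. In the brain, members of the class act in chromatin regulation, in the response to low oxygen and in the fat and carnitine metabolism of neurons and glia.

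Levels are given as CPM, counts scaled to the assigned reads of each library, on a TMM scale shared by all 20 libraries; they are not divided by transcript length, so a level is compared between libraries and not between genes. Differences are log2 fold changes with their standard error (SE), tested across all accessions by edgeR's quasi-likelihood method, and a member passed where its Benjamini-Hochberg adjusted p was under 0.05. "Rose" and "fell" are used of members that passed. Each library had between 4.34 and 12.97 M assigned reads, the accumbens low-iron ones 4.34 to 5.93 M. Among the members tested, the coefficient of variation had medians of 6.81 to 8.27% in the 4 groups and reached 28.4 to 38.2% in the most variable member of each group.

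The summed level of the striatal projection neuron markers was 3532 to 6471 CPM in accumbens libraries and 356 to 393 CPM in cortex libraries, and that of the cortical glutamatergic markers was 134 to 645 CPM against 2222 to 4169 CPM, so the libraries matched their labelled regions. Oligodendrocyte markers summed to 4853 to 7346 CPM in the accumbens and 992 to 1670 CPM in the cortex. Cortex standard library 4 held 1437 CPM of meningeal and fibroblast markers, against 153 to 284 CPM in the other cortex standard libraries, and its cortical glutamatergic sum was the lowest of the cortex libraries. Accumbens standard library 4 held 645 CPM of cortical glutamatergic markers, while each of the other 9 accumbens libraries had 201 CPM or less. In these bulk samples, fewer cells of a type and less RNA per cell cannot be told apart.

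The first comparison asked how the class differs between the regions, in accumbens minus cortex, separately under each diet. Under the standard diet 18 of 36 members tested passed, 13 higher and 5 lower in the accumbens, a share of 50% beside 47% of all accessions tested. By direction, 36.1% of members rose beside 23% of all accessions, and 13.9% fell beside 24%. In the low-iron libraries 21 of 35 members passed, 17 higher and 4 lower, which is 60% beside 59.1% of all accessions; 48.6% rose beside 30.1%, and 11.4% fell beside 29%. The share of members that passed was thus near that of all accessions under both diets. The median log2 fold change of the members was 0.12 under the standard diet and 0.20 under the low-iron diet, beside 0.0075 and 0.027 for all accessions. Passing under both diets in the same direction was found for 16 of the 35 members tested in both, or 45.7% beside 43.5% of all accessions; 12 were higher and 4 lower in the accumbens, beside 21.2% and 22.2% of all accessions. No member passed under both diets in opposite directions. The 5 and 5 libraries did not overlap for 12 of 36 members under the standard diet (33.3%, beside 33.6% of all accessions) and for 17 of 35 under the low-iron diet (48.6%, beside 44.8%). With library size as a covariate, P3h2, P3h3, Kdm2a, Kdm4a, Kdm5a and Kdm8 no longer passed under the standard diet (edgeR adjusted p from 0.0513 to 0.390). Under the low-iron diet Alkbh1, Hspbap1, Kdm2b, Kdm4b, P4ha2, Phyh, Plod1 and Tmlhe no longer passed with that covariate (adjusted p from 0.0548 to 0.594). Accumbens libraries were the smaller ones under both diets, at 5.13 ± 0.696 M against 9.36 ± 2.59 M assigned reads (SD, n = 5) under the low-iron diet.

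The 4 members lower in the accumbens under both diets were Egln3, P4ha1, P4ha2 and P4ha3, an oxygen-sensing hydroxylase and the catalytic subunits of collagen prolyl 4-hydroxylase. The bases before their annotated starts are shown because these are the members that fell together and because several of these genes are textbook targets of HIF, whose core binding letters are ACGTG or GCGTG. Each line gives the 250 bases before the start in RefSeq's GRCr8 annotation, on the strand of the gene, 5′ to 3′, with every match to ACGTG or GCGTG on either strand (CACGT or CACGC when read on the other) in capitals. The windows are chr6:77411016-77411265 (minus strand) for Egln3, chr20:27844796-27845045 (plus strand) for P4ha1, chr10:38743644-38743893 (plus strand) for P4ha2 and chr1:164040614-164040863 (plus strand) for P4ha3.
Egln3: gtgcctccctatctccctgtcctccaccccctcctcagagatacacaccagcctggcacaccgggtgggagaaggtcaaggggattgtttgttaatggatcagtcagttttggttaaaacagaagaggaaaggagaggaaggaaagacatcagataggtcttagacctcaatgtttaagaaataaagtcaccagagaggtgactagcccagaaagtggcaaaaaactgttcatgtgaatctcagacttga
P4ha1: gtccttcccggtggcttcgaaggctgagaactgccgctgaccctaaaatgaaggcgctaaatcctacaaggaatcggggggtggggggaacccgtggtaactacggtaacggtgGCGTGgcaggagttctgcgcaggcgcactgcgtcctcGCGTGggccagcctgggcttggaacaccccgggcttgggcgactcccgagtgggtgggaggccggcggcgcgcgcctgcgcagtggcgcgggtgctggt
P4ha2: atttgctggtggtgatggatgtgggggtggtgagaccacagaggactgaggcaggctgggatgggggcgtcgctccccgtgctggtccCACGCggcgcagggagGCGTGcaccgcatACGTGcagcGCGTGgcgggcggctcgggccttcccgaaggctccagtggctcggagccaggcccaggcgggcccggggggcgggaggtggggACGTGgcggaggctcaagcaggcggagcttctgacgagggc
P4ha3: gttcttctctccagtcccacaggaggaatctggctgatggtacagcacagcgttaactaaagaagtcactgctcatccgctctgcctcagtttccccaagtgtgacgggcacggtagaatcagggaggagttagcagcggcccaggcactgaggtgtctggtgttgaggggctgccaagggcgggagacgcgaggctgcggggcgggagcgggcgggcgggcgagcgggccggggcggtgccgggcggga

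The P4ha2 window held 5 matches, the P4ha1 window 2, and the Egln3 and P4ha3 windows 0. A match was found in the windows of 22 of the 40 member symbols (55%) and in 10400 of 27457 RefSeq windows of the same length (37.9%). The members' windows had a median of 61.2% G and C against 52% for all windows, and both motifs contain mostly G and C. For each symbol only the first listed start with a full-length window was used, and any other annotated starts were not examined. These letters are a description of the sequence and not a measurement of binding, and a window without them says only that they are not in those 250 bases.

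Among the oxygen-sensing genes, Egln3, which encodes the HIF prolyl hydroxylase PHD3, had the largest fold of the 3 between the regions. It was at 47.4, 44.9, 47.8, 37.0 and 49.7 CPM in cortex standard libraries 1 to 5 and at 48.0, 58.3, 45.8, 46.8 and 49.3 CPM in cortex low-iron libraries. In the accumbens it was at 10.8, 9.68, 16.3, 17.0 and 13.8 CPM under the standard diet and at 9.89, 11.2, 9.75, 11.3 and 9.65 CPM under the low-iron diet. Every accumbens library lay below every cortex library. The log2 fold change was -1.76 ± 0.15 (SE, n = 5 and 5) under the standard diet, with an edgeR adjusted p of 1.95e-06, which is 3.39-fold lower in the accumbens (95% interval 2.72 to 4.24). With low iron it was -2.24 ± 0.09 (adjusted p = 5.58e-13), or 4.73-fold lower (4.12 to 5.43).

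Egln2, the gene of the HIF prolyl hydroxylase PHD1, and Hif1an, the gene of the asparaginyl hydroxylase that blocks HIF from recruiting its coactivator, did not pass between regions. Egln2 was at 160 ± 10.3 CPM in cortex standard and 144 ± 15.8 CPM in accumbens standard libraries (SD, n = 5), with a log2 fold change of -0.15 (95% interval -0.31 to 0.02) and an edgeR adjusted p of 0.128. Without accumbens standard library 2 its log2 fold change was -0.19 and its adjusted p 0.0295. In the low-iron libraries the log2 fold change of Egln2 was -0.09 (-0.22 to 0.04). Hif1an was at 15.8 ± 1.31 CPM in cortex standard and 15.1 ± 1.88 CPM in accumbens standard libraries (SD, n = 5). Its log2 fold change was -0.07 (-0.29 to 0.15) under the standard diet and 0.00 (-0.20 to 0.21) under the low-iron diet. For both genes the libraries of the regions overlapped under both diets.

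**Figure D1:**
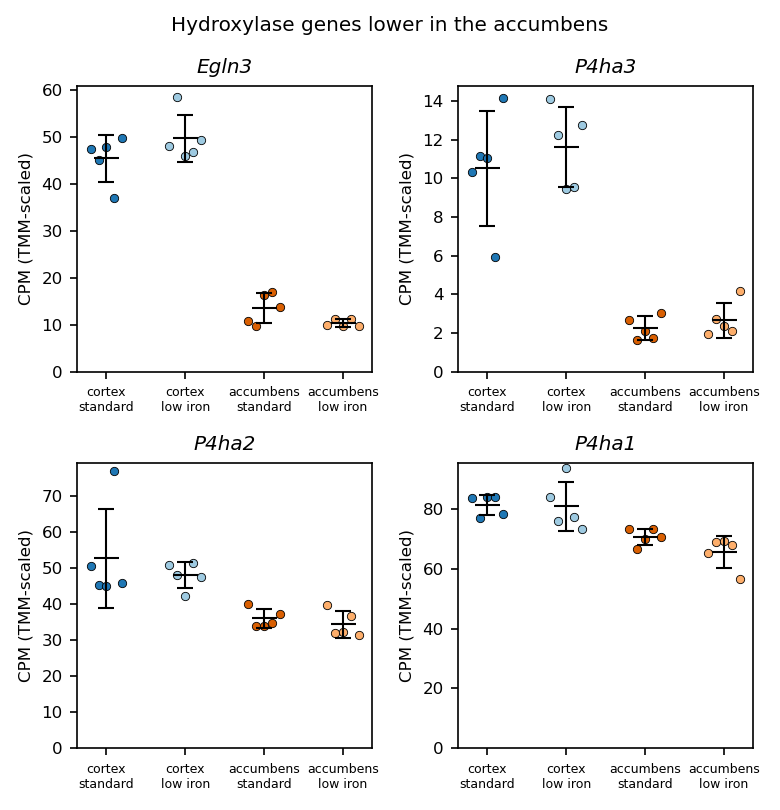
Level in CPM (TMM-scaled, vertical axis) of Egln3, P4ha3, P4ha2 and P4ha1 in each library of the 4 groups; points are libraries and black marks the mean with SD (n = 5). Egln3 lies between 37.0 and 58.3 CPM in the cortex and between 9.65 and 17.0 CPM in the accumbens, and the cortex standard point at 76.9 CPM in the P4ha2 panel is library 4.

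Of the collagen hydroxylase families, only the P4ha family fell as a whole in the accumbens under both diets. P4ha1, P4ha2 and P4ha3 encode alternative catalytic alpha subunits of the prolyl 4-hydroxylase that stabilises the collagen triple helix, P3h1 to P3h3 encode prolyl 3-hydroxylases, and Plod1 to Plod3 encode lysyl hydroxylases that prepare collagen for cross-linking. P4ha3 was at 10.3, 11.1, 11.0, 5.92 and 14.1 CPM in cortex standard libraries and at 2.70, 1.65, 2.13, 1.75 and 3.06 CPM in accumbens standard libraries. In the low-iron libraries P4ha3 was at 14.1, 12.2, 9.45, 9.57 and 12.7 CPM in the cortex and at 1.94, 2.75, 2.38, 2.09 and 4.17 CPM in the accumbens. The regions did not overlap under either diet, and cortex standard library 4 was the lowest cortex library. The log2 fold change of P4ha3 was -2.20 ± 0.25 (SE) under the standard diet (edgeR adjusted p = 1.59e-05) and -2.13 ± 0.19 under the low-iron diet (adjusted p = 2.58e-08).

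P4ha2 and P4ha1 fell by less. P4ha2 was at 50.5, 45.2, 45.0, 76.9 and 45.9 CPM in cortex standard libraries and at 40.0, 34.0, 33.9, 34.8 and 37.3 CPM in accumbens standard libraries. Its log2 fold change was -0.55 ± 0.14 under the standard diet (edgeR adjusted p = 0.00862) and -0.47 ± 0.08 under the low-iron diet (adjusted p = 5.9e-05). The highest of the cortex values is library 4, and without that library and accumbens standard library 4 the standard-diet log2 fold change of P4ha2 was -0.36 (adjusted p = 0.00119). P4ha1 was at 81.2 ± 3.42 CPM in cortex standard and 70.6 ± 2.77 CPM in accumbens standard libraries (SD, n = 5), with a log2 fold change of -0.20 ± 0.05 (adjusted p = 0.0053) and of -0.27 ± 0.07 under the low-iron diet (adjusted p = 0.00418). For both genes every accumbens library lay below every cortex library of the same diet.

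The remaining collagen hydroxylases took mixed directions. P3h3 was at 155, 143, 147, 194 and 151 CPM in cortex standard libraries and at 206, 222, 216, 187 and 206 CPM in accumbens standard libraries. Its log2 fold change was 0.39 ± 0.08 (edgeR adjusted p = 0.00206), and 0.55 ± 0.06 under the low-iron diet (adjusted p = 2.44e-07), where the regions did not overlap. P3h2, at 2.88 ± 1.06 CPM in cortex standard and 1.38 ± 0.441 CPM in accumbens standard libraries (SD, n = 5), fell by 1.06 on the log2 scale in the accumbens under the standard diet (adjusted p = 0.0118) and had too few reads to be tested under the low-iron diet. With no filter on low counts its low-iron value was -0.99 (adjusted p = 0.0101). Plod1 rose in the accumbens under the low-iron diet, with a log2 fold change of 0.33 ± 0.09 (adjusted p = 0.00513). Under the standard diet the Plod1 value was 0.05 ± 0.18 (edgeR adjusted p = 0.858) with all libraries and 0.28 (edgeR adjusted p = 0.00329) without cortex standard library 4, where Plod1 was at 63.9 CPM against 30.5 to 35.5 CPM in the others. Over all settings run under the standard diet, Plod1 ranged from -0.17 to 0.29 and passed in 2 of 17. P3h1 and Plod3 did not pass under either diet, although Plod3 passed under the standard diet without cortex standard library 4 and accumbens standard library 4 (0.18, adjusted p = 0.0290). In all, 1 of 8 collagen hydroxylases tested rose and 4 fell under the standard diet, beside 23% and 24% of all accessions, and 2 of 7 rose and 3 fell under the low-iron diet, beside 30.1% and 29%. Both Plod2 accessions had at most 3 reads in any library and entered no test. How reads shared by both were assigned is not given in the sources used here, so the level of Plod2 is uncertain.

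The histone demethylases were the role in which members rose most often. Under the standard diet 9 of 13 tested rose in the accumbens and 0 fell, and under the low-iron diet 11 of 13 rose and 0 fell, beside 23% and 30.1% of all accessions that rose. Their median log2 fold change was 0.27 under the standard diet and 0.34 under the low-iron diet. Most remove methyl groups from particular histone lysines: the Kdm4 enzymes act on lysine 9 and lysine 36 of histone H3, Kdm3a, Phf2 and Phf8 on lysine 9, the Kdm5 enzymes on lysine 4, Kdm6b on lysine 27, and the Kdm2 enzymes on lysine 36. In the 9 that rose under both diets the log2 fold changes were 0.16 to 0.54.

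Kdm4a was at 79.3 to 111 CPM in the cortex standard libraries and 106 to 122 CPM in the accumbens standard ones, with a log2 fold change of 0.35 ± 0.09 (edgeR adjusted p = 0.00593). In low-iron libraries Kdm4a lay at 74.5 to 87.7 CPM in the cortex and 111 to 127 CPM in the accumbens, without overlap, and the log2 fold change was 0.54 ± 0.06 (adjusted p = 1.82e-07). The cortex value of 111 CPM is library 4. Kdm4c was at 22.1, 18.3, 21.0, 22.9 and 20.5 CPM in cortex standard libraries and at 27.9, 30.6, 29.9, 28.5 and 28.0 CPM in accumbens standard libraries, with a log2 fold change of 0.47 ± 0.07 (adjusted p = 0.000219). Kdm4c gave 0.40 ± 0.09 under the low-iron diet (adjusted p = 0.00124), again with no overlap.

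Kdm3a was at 74.2, 78.6, 68.7, 77.7 and 73.5 CPM in cortex standard libraries and at 87.3, 95.6, 99.6, 87.0 and 96.2 CPM in accumbens standard libraries. In low-iron libraries Kdm3a was at 73.3, 67.7, 75.9, 79.5 and 73.3 CPM in the cortex and at 110, 105, 103, 101 and 98.9 CPM in the accumbens. Under each diet every accumbens library exceeded every cortex library. Its log2 fold change was 0.32 ± 0.06 under the standard diet (edgeR adjusted p = 0.00064) and 0.50 ± 0.06 under the low-iron diet (adjusted p = 4.39e-07).

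Kdm5a, counted on 1 of its 2 accessions while the other held 0 reads throughout, rose by a log2 fold change of 0.35 ± 0.08 (edgeR adjusted p = 0.00243) and 0.52 ± 0.07 (adjusted p = 6.09e-06) under the standard and low-iron diets. How reads shared by both accessions were assigned is not given in the sources used here, so the level of Kdm5a is uncertain. Kdm8, a JmjC hydroxylase, rose by 0.34 ± 0.08 (adjusted p = 0.00565) and 0.35 ± 0.09 (adjusted p = 0.00221). Phf2, Kdm5b, Kdm4b and Kdm2a also rose under both diets, with log2 fold changes of 0.16 to 0.32 under the standard diet and 0.20 to 0.51 under the low-iron diet. The standard-diet value of Kdm2a, 0.16, no longer passed without any 1 of 7 libraries (cortex 1, 2, 3 and 5 and accumbens 1, 3 and 5; edgeR adjusted p from 0.0502 to 0.0860) or with the replicate number as a block (0.0725). Phf8 and Kdm2b rose under the low-iron diet, by 0.34 and 0.23. Phf8 also passed under the standard diet without cortex library 4 (0.21, edgeR adjusted p = 0.00503) or without accumbens library 2 (0.20, adjusted p = 0.0345). Kdm6b and Jmjd6 did not pass under either diet, although Kdm6b passed under the low-iron diet without cortex library 2 (0.26, edgeR adjusted p = 0.0139). Kdm6b was at 139 CPM in cortex standard library 4 and at 68.6 to 93.3 CPM in the other 4. Kdm4d held at most 4 reads in a library and entered no test.

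The number of histone demethylases that rose ranged from 5 to 10 under the standard diet and from 9 to 12 under the low-iron diet over the alternatives tried, with 0 that fell in any of them. The lowest standard-diet count, 5, came with library size as a covariate, and 10 rose without cortex standard library 4 and accumbens standard library 4. Of all accessions, 3386 of 11612 passed in either direction with that covariate and 6099 of 11623 without those libraries, against 5462 of 11612. Under the low-iron diet 3957 of 11220 accessions passed with that covariate, against 6630. The sum of oligodendrocyte markers moved with the region as well, from 992 to 1670 CPM in the cortex to 4853 to 7346 CPM in the accumbens; its part in the histone demethylase values was not tested.

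**Figure D2:**
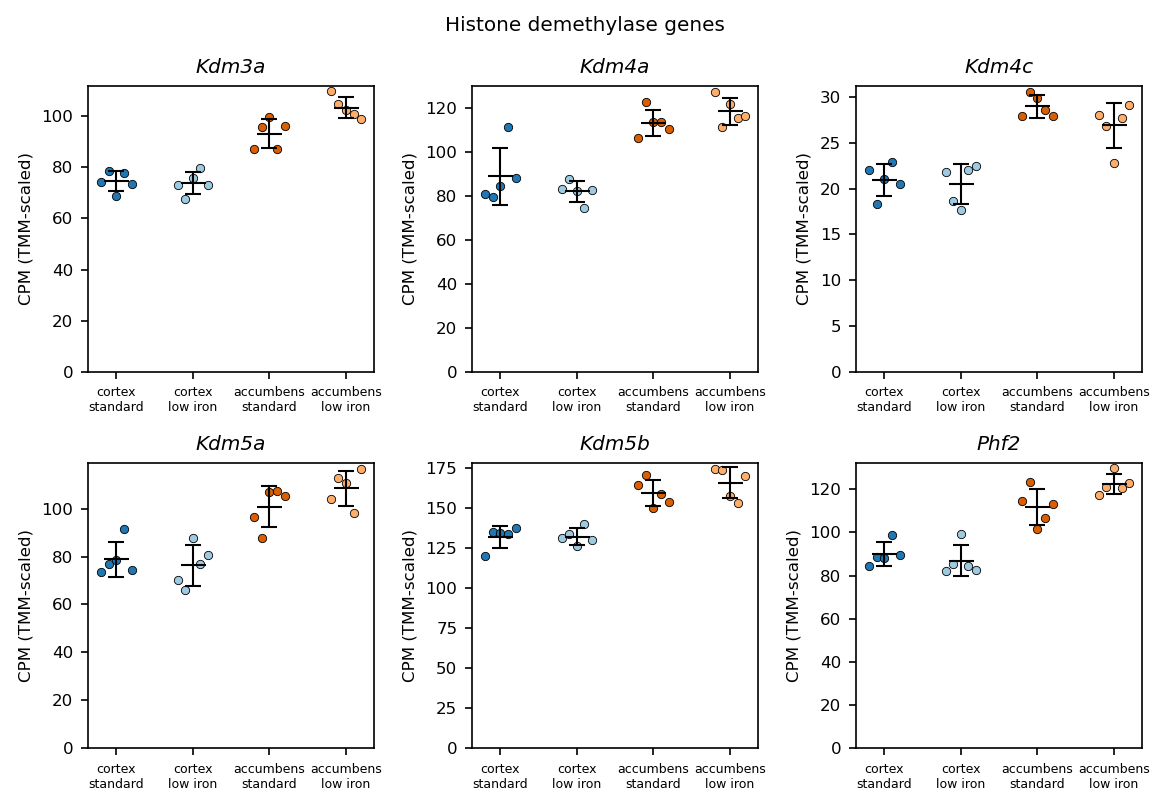
Level in CPM (TMM-scaled, vertical axis) of 6 histone demethylase genes in each library of the 4 groups; points are libraries and black marks the mean with SD (n = 5). Kdm3a lies at 67.7 to 79.5 CPM in the cortex and 87.0 to 110 CPM in the accumbens, and the accumbens means of all 6 genes exceed both of their cortex means.

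Of the RNA and DNA dealkylation genes, Alkbh1, which encodes a demethylase of transfer RNA, was the member that rose under both diets. It was at 25.1 ± 1.94 CPM in cortex standard and 31.8 ± 1.41 CPM in accumbens standard libraries (SD, n = 5), with a log2 fold change of 0.34 ± 0.07 (edgeR adjusted p = 0.00155), and of 0.41 ± 0.09 under the low-iron diet (adjusted p = 0.000479). The regions did not overlap under either diet. Fto, which removes N6-methyladenosine and related marks from RNA, was at 93.4, 91.9, 103, 84.4 and 103 CPM in cortex standard libraries and at 92.7, 92.1, 91.9, 90.2 and 100.3 CPM in accumbens standard libraries. Those ranges overlap, and its log2 fold change was -0.03 (95% interval -0.16 to 0.11) under the standard diet and -0.09 (-0.22 to 0.04) under the low-iron diet. Alkbh5, the other eraser of N6-methyladenosine, did not pass under either diet, and neither did Alkbh2, Alkbh3, Alkbh4, Alkbh7 or Alkbh8. In the low-iron libraries Alkbh7 gave -0.20 (edgeR adjusted p = 0.0620) and passed without cortex library 3, cortex library 5 or accumbens library 2 (adjusted p from 0.0251 to 0.0496), or with RLE normalization of all libraries (adjusted p = 0.0491), and Alkbh8 gave 0.31 and passed without accumbens library 2 (0.42, adjusted p = 0.0297). Alkbh6 had at most 1 read in any library.

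Among the other members, Hspbap1, a JmjC protein that binds a small heat shock protein, was at 8.63, 6.25, 8.74, 8.26 and 7.01 CPM in cortex standard libraries and at 11.5, 11.6, 11.2, 9.63 and 12.1 CPM in accumbens standard libraries. The regions did not overlap, and the log2 fold change was 0.53 ± 0.12 (edgeR adjusted p = 0.00339) and 0.64 ± 0.12 under the low-iron diet (adjusted p = 0.000168). Ogfod1, a hydroxylase of a ribosomal protein, rose under the standard diet by 0.23 ± 0.08 (adjusted p = 0.0336) and no longer passed without cortex library 1 or accumbens library 1, 3 or 5 (0.0514 to 0.0857). Phyh, the peroxisomal enzyme of phytanic acid breakdown, and Tmlhe, the first enzyme of carnitine synthesis, rose under the low-iron diet by 0.21 ± 0.07 (adjusted p = 0.0142) and 0.42 ± 0.16 (adjusted p = 0.0288). Phyh no longer passed without accumbens library 5 (edgeR adjusted p = 0.0588), and Tmlhe did not without cortex library 1, 2 or 4 or accumbens library 3 or 5 (0.0535 to 0.0949), or with DESeq2 on all libraries (0.0505). Bbox1, the last enzyme of carnitine synthesis, held 0 to 15 reads a library in the accumbens and at most 1 in the cortex and entered no test; with no filter on low counts it passed under both diets, higher in the accumbens (edgeR adjusted p = 0.00853 under the standard and 0.000373 under the low-iron diet). Riox1 and Riox2, ribosomal oxygenases, were matched in the library counts through RefSeq's gene table and are not counted among the members. Riox1 was at 29.1 ± 1.41 CPM in cortex standard and 19.2 ± 2.07 CPM in accumbens standard libraries (SD, n = 5). Its log2 fold change was -0.60 under the standard diet (edgeR adjusted p = 7.73e-05) and -0.71 under the low-iron diet (edgeR adjusted p = 3.46e-06). Riox2 did not pass under either diet.

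**Figure D3:**
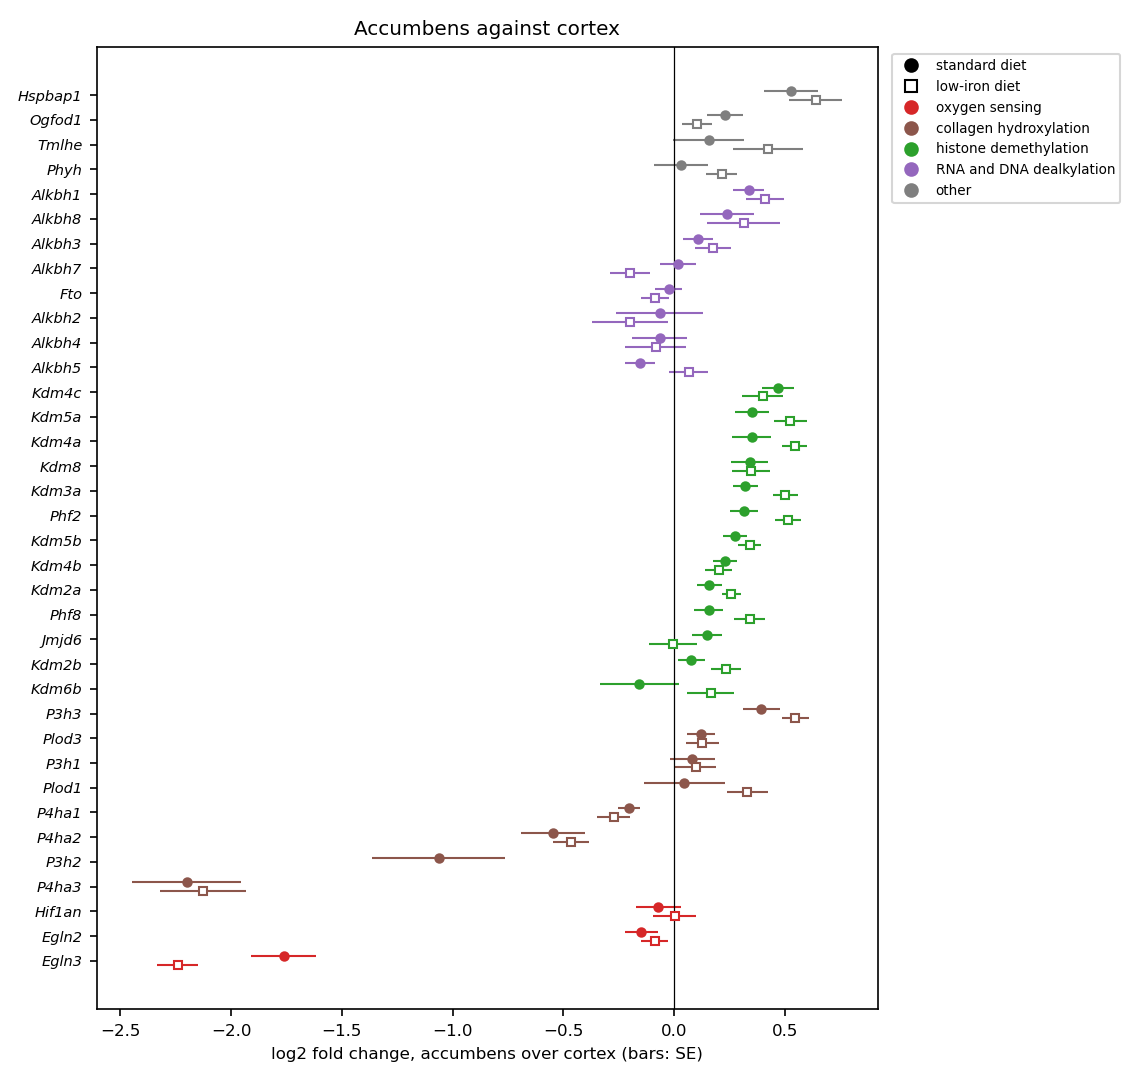
Log2 fold change of each member tested, accumbens over cortex (horizontal axis; bars are SE), under the standard diet (filled circles) and the low-iron diet (open squares), coloured by role. Egln3 at -1.76 and -2.24 and P4ha3 at -2.20 and -2.13 lie far to the left, and most histone demethylases lie between 0 and 0.54.

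The genes around these enzymes were described from lists for the same pathways; the counts that rose and fell stand beside 23% and 24% of all accessions under the standard diet and 30.1% and 29% under the low-iron diet. Of the HIF subunits and Vhl, Hif1a rose by 0.44 ± 0.05 and Epas1 by 0.21 ± 0.08 under the standard diet, 2 of 6 tested; under the low-iron diet 3 rose and 1 fell. Of 16 HIF target genes tested under the standard diet, 2 rose and 7 fell, with a median of -0.19; Ldha, a glycolytic enzyme, had a log2 fold change of -0.79 ± 0.09 and Ankrd37 one of 1.74 ± 0.14. Under the low-iron diet 3 of 15 rose and 7 fell, with a median of -0.17. The medians of all accessions were 0.0075 and 0.027.

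Of the collagen genes and collagen-folding genes, 0 of 9 rose and 4 fell under the standard diet (beside 23% and 24% of all accessions), with a median of -0.31. Col5a1 fell by 2.44 on the log2 scale and Col4a1 by 0.31. Under the low-iron diet 0 rose and 2 fell, with a median of -0.14. Several of these collagens are also markers of meninges and fibroblasts, whose summed level was 65.4 to 91.7 CPM in the accumbens and 82.8 to 1437 CPM in the cortex; the part of these cells in the collagen hydroxylase values was not tested. P4ha1, P4ha2 and P4ha3 fell also without cortex standard library 4 and accumbens standard library 4, with log2 fold changes of -0.20, -0.36 and -2.28.

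The histone methyltransferases, which add the marks that the demethylases remove, rose in 6 of 13 cases and fell in 1 under the standard diet (beside 23% and 24% of all accessions, as for the lists that follow, and 30.1% and 29% under the low-iron diet), with a median of 0.21. Ezh2, the catalytic subunit that methylates lysine 27 of histone H3, had a log2 fold change of 0.81 ± 0.11 and Setdb1 one of 0.41 ± 0.06. Under the low-iron diet 7 of 13 rose and 1 fell, with a median of 0.20. Of the writers and readers of N6-methyladenosine, 5 of 9 accessions rose and 0 fell under the standard diet, and 5 of 8 rose and 1 fell under the low-iron diet. Of the enzymes that handle 2-oxoglutarate, succinate and fumarate, 2 of 17 rose and 2 fell under the standard diet, and 2 rose and 6 fell under the low-iron diet. Slc23a2, the neuronal ascorbate transporter, fell under both diets, by 0.53 and 0.40 on the log2 scale. Of the flavin-dependent histone demethylases Kdm1a and Kdm1b, which use no iron, 0 of 2 passed under the standard diet and 1 rose under the low-iron diet. Of the iron uptake and storage genes, 2 of 9 rose and 2 fell under the standard diet, and 3 rose and 1 fell under the low-iron diet; of the DNA methylation writers and readers, 3 of 12 rose and 1 fell, and 3 rose and 3 fell. Of related dioxygenase genes that the rule leaves out, 5 of 13 rose and 3 fell under the standard diet, and 5 of 12 rose and 4 fell under the low-iron diet.

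The second comparison is the one the series title points to, the low-iron against the standard diet in the accumbens. No member passed: 0 of 35 tested had an adjusted p under 0.05, as did 0% of the 11202 accessions tested with edgeR, and DESeq2 called 1 accession, which was not a member. At an unadjusted p under 0.05 edgeR found 6 of 35 members (17.1%, beside 4.04% of all accessions), and DESeq2 found 4 of 40 (10%, beside 2.46%). The 6 were Egln3, Kdm6b, Kdm3a, Alkbh7, Alkbh5 and Phf2, and the lowest adjusted p of these was 0.972. Without accumbens standard library 4 edgeR found 3 of 35 members at an unadjusted p under 0.05 (8.57%, beside 3.45% of all accessions). With library size as a covariate it found 2 of 35 (5.71%, beside 8.28%). The median log2 fold change of the members was 0.017, beside 0.0019 for all accessions, and 23 of 35 members were above 0, beside 50.8%. Without accumbens standard library 4 the median was 0.0089 and 18 of 35 were above 0. By role, 11 of 13 histone demethylases had a value above 0, beside 50.8% of all accessions, with a median of 0.069, and 5 of 7 collagen hydroxylases had a value below 0, with a median of -0.062.

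Egln3 had the most negative value of the members. The standard-diet libraries, at 9.68 to 17.0 CPM, spread more widely than the low-iron ones, at 9.65 to 11.3 CPM, and the groups overlap. Its log2 fold change was -0.36 ± 0.16 (edgeR adjusted p = 0.972), with a 95% interval of -0.69 to -0.02. The highest value, 17.0 CPM, is accumbens standard library 4, which also held 645 CPM of cortical glutamatergic markers, and Egln3 was higher in the cortex than in the accumbens. Without this library the log2 fold change of Egln3 was -0.27, and with library size as a covariate it was -0.69 (edgeR adjusted p = 0.473); accumbens standard library 3, at 16.3 CPM, held 162 CPM of those markers. The part of the cortical marker signal in the Egln3 value was not tested.

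Kdm6b was at 79.9, 83.0, 78.0, 76.2 and 80.3 CPM in accumbens standard and 82.7, 86.6, 92.8, 86.5 and 92.6 CPM in accumbens low-iron libraries. Kdm3a was at 87.0 to 99.6 CPM and 98.9 to 110 CPM. Both pairs of groups overlap at their edges, and both genes had a log2 fold change of 0.15 ± 0.05 (edgeR adjusted p = 0.972). Alkbh7, a mitochondrial member of the Alkbh family, was at 27.0, 27.0, 24.7, 24.5 and 27.8 CPM in standard and 21.2, 24.2, 23.8, 22.0 and 22.6 CPM in low-iron libraries, so that the highest low-iron library was below the lowest standard one. Its log2 fold change was -0.21 ± 0.08 (edgeR adjusted p = 0.972). The other member without overlap was Kdm2b, at 38.7 to 43.7 CPM in standard and 44.1 to 46.6 CPM in low-iron libraries (log2 fold change 0.11 ± 0.06, adjusted p = 0.972). Such a lack of overlap was found for 2 of 35 members (5.71%), beside 0.946% of all accessions.

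Alkbh5 gave 0.19 ± 0.08 and P4ha1 -0.10 ± 0.06 (edgeR adjusted p = 0.972 for both), with overlapping groups. Egln2, Hif1an and Fto differed little: their log2 fold changes were 0.02 (95% interval -0.13 to 0.17), 0.00 (-0.22 to 0.22) and 0.00 (-0.12 to 0.12). Fto was at 93.4 ± 3.97 CPM in standard and 93.5 ± 5.68 CPM in low-iron libraries (SD, n = 5). In the lists around the enzymes 0 genes passed in this comparison, including 0 of 15 HIF target genes (median -0.024), 0 of 9 iron uptake and storage genes (median 0.068) and 0 of 17 genes of 2-oxoglutarate, succinate and fumarate handling (median -0.043).

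The same comparison in the cortex also gave no pass, with 0 of 36 members and 0% of 11662 accessions. With edgeR 0 of 36 members had an unadjusted p under 0.05, beside 5.99% of all accessions. DESeq2 found 1 of 40 at that level (2.5%, beside 5.4%) and called 0 accessions after adjustment. The lowest p values belonged to Plod1, with a log2 fold change of -0.41 ± 0.20, Phyh, with -0.24 ± 0.12, and Ogfod1, with 0.13 ± 0.07 (edgeR adjusted p = 0.683 for each). Plod1 was at 34.2, 33.2, 35.5, 63.9 and 30.5 CPM in the standard and 29.1, 26.2, 32.0, 31.7 and 31.5 CPM in the low-iron libraries. The value of 63.9 CPM belongs to library 4, and the other 4 standard libraries overlap the low-iron ones. Without it the log2 fold change of Plod1 was -0.16 and that of Phyh -0.11.

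Cortex standard library 4 was the highest of its 5 libraries for 18 of the 36 members (50%), beside 32% of all accessions, including 7 of 8 collagen hydroxylases and 8 of 13 histone demethylases. With it, 13 of 36 members had a value above 0, beside 49.8% of all accessions, and the median was -0.037; without it, 18 of 36 did and the median was 0.00071. P3h3 gave -0.14 ± 0.08 with it and -0.05 without it. Its meningeal marker sum of 1437 CPM, with endothelial and mural markers at 1001 CPM, stands beside these values, and its part in them was not tested. Egln3 gave 0.12 ± 0.08, Egln2 -0.04, Hif1an -0.08 and Fto 0.06 in the cortex, with adjusted p of 0.696, 0.849, 0.799 and 0.8 by edgeR. The 95% intervals were -0.06 to 0.30 for Egln3, -0.18 to 0.09 for Egln2, -0.27 to 0.11 for Hif1an and -0.08 to 0.20 for Fto.

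**Figure D4:**
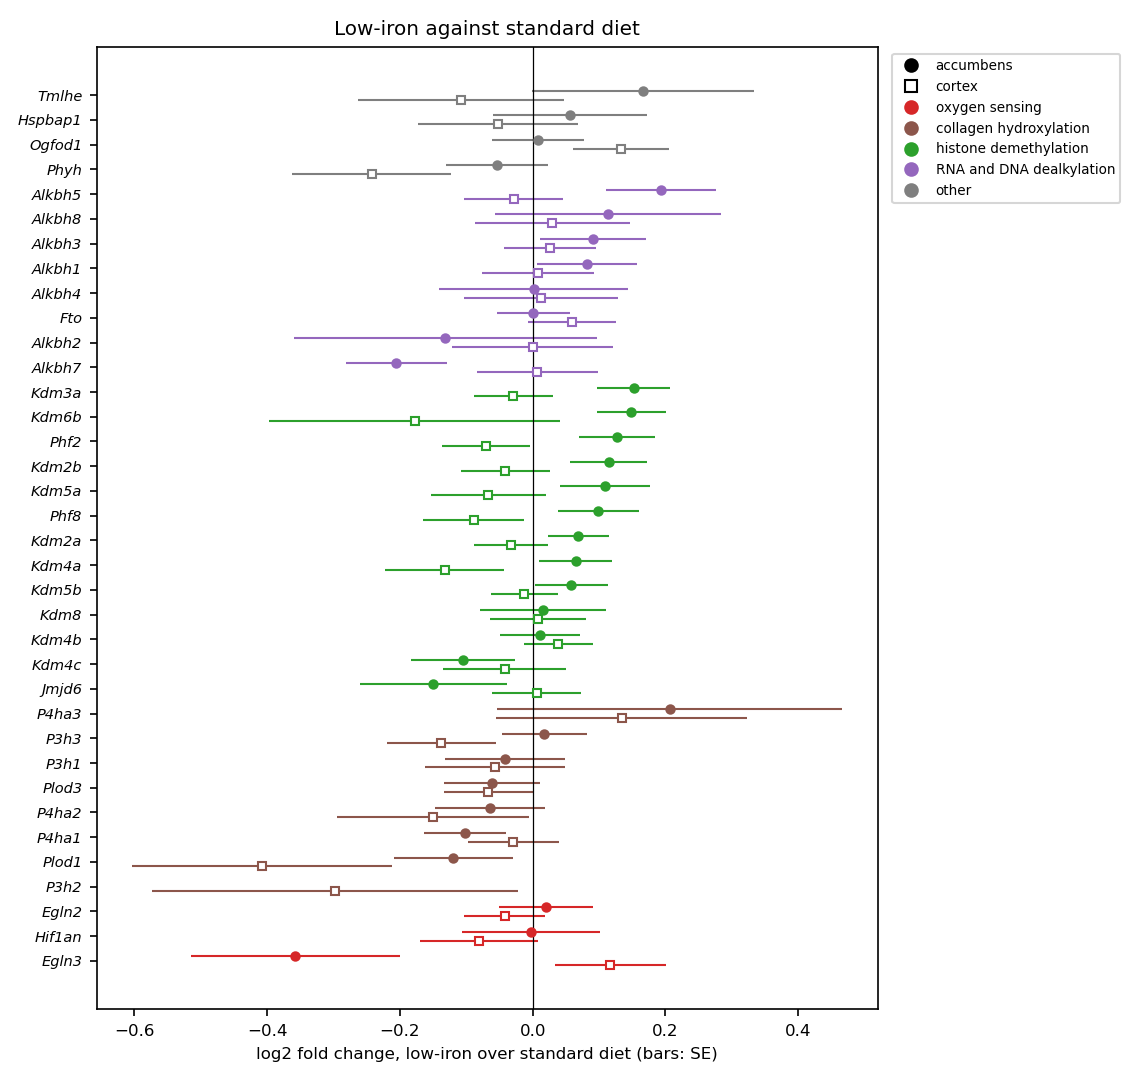
Log2 fold change of each member tested, low-iron over standard diet (horizontal axis; bars are SE), in the accumbens (filled circles) and the cortex (open squares), coloured by role. Egln3 lies at -0.36 in the accumbens and 0.12 in the cortex, and no member passed in either region.

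The third comparison asked whether the diet difference itself differed between the regions, as the accumbens difference minus the cortex difference over all 20 libraries; it shares its libraries with both diet comparisons. No member passed, with 0 of 36 and 0% of 11788 accessions. At an unadjusted p under 0.05 edgeR found 3 of 36 members (8.33%, beside 5.37% of all accessions). These were Egln3, with a difference of -0.49 ± 0.18 on the log2 scale (95% interval -0.86 to -0.12), Kdm3a, with 0.16 ± 0.08, and Phf2, with 0.18 ± 0.08 (edgeR adjusted p = 0.818 for each). Without cortex standard library 4 and accumbens standard library 4, 0 of 36 members had an unadjusted p under 0.05 with edgeR, beside 3.19% of all accessions. Alkbh7 gave -0.23 ± 0.12, Alkbh5 0.20 ± 0.11 and Ogfod1 -0.14 ± 0.10, none of which passed. For Egln2, Hif1an and Fto the differences were 0.05, 0.06 and -0.08, with 95% intervals of -0.16 to 0.25, -0.22 to 0.34 and -0.26 to 0.11.

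**Figure D5:**
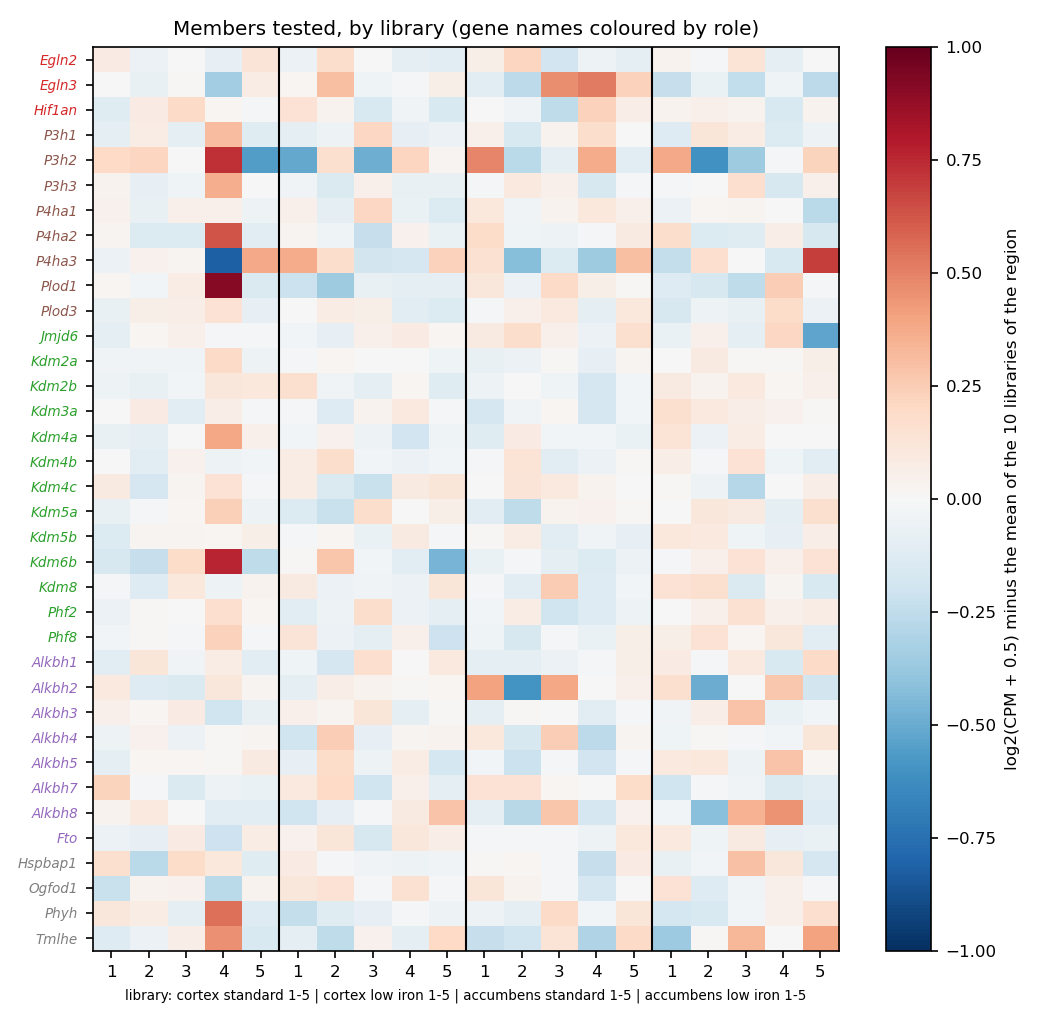
Each member tested (rows, names coloured by role as in the fold change plots) in each of the 20 libraries (columns), as log2(CPM + 0.5) minus the mean of the 10 libraries of its region; the colour scale ends at -1 and 1. Column 4 of the cortex standard block is the most strongly coloured, with Plod1 at 63.9 CPM and P4ha3 at 5.92 CPM, and the low-iron blocks show no column-wide shift from the standard ones.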

How the data were processed

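Poly(A) RNA of 20 libraries (5 per region and diet) was read as 75 bp single reads on a NextSeq 500, from RNA with an integrity number above 8.3, per the labels' protocols. The authors deposited read counts per RefSeq accession; STAR, HTSeq, DESeq, DESeq2, Trimmomatic 0.36.3 and the build rn6 appear, with no role given, in the submitters' processing notes. The deposited tables also hold the authors' log2 fold changes, test statistics (score) and p-values per diet comparison, which were not used for any value given here; their counts equalled those of the libraries in all 340520 cells compared. The unstranded count was used, since each strand column held close to the same share of reads (49.6 to 50.0% in the first), so reads of a gene and an antisense partner cannot be told apart. Rows that name no gene, 50.8 to 60.7% of reads, were left out. Ambiguous reads were 3.61 to 4.23%. A count of 0 allows up to 3 reads, or 0.231 to 0.691 CPM by library, for counting error only.

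Each comparison was fitted in R 4.3.3 with edgeR 4.0.16 (TMM, filterByExpr with a minimum count of 10, robust quasi-likelihood F test) over all accessions tested; p-values were adjusted over those accessions by the Benjamini-Hochberg method. The SE was taken as the log2 fold change over the root of F, and intervals are 95%. The models were run on simulated counts for diet in the accumbens, the interaction and the regions under the standard diet. These counts had the same dispersion for every accession and no library that stood apart, so they cannot show how cortex standard library 4 affects the fits. Alternatives were DESeq2 1.42.0, RLE normalization, no filter on low counts, library size as a covariate, a block of replicate number and each library left out; leaving out cortex standard library 4 and accumbens standard library 4 together was added after the data were seen. Libraries were compared for copies and none was found: over the 40 within-group pairs the smallest chi-square, divided by its degrees of freedom, was 2.03.

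The members and lists were chosen with earlier results of these data known. Named throughout were Egln2, Egln3, Hif1an and Fto. For regions, the rule added up to 8 members per direction with the largest folds among those passing under both diets with a mean of at least 1 CPM in the higher region, and for diet and the interaction the 3 lowest p-values per direction. Other members were given by role, and those named with values were chosen after these were seen. Promoter sequences are RefSeq's on GRCr8 and matched all 40 symbols; no coordinates of rn6 were used. The marker lists are meninges and fibroblasts, endothelial and mural cells, cortical glutamatergic neurons, striatal projection neurons, oligodendrocytes, astrocytes and microglia. Astrocyte markers summed to 1257 to 1572 CPM in the accumbens and 1491 to 2202 CPM in the cortex, and microglial markers to 510 to 642 CPM and 495 to 583 CPM. The astrocyte markers took mixed directions. Of 6 tested, 1 rose and 2 fell in the accumbens under the standard diet, beside 23% and 24% of all accessions. Under the low-iron diet 2 rose and 2 fell, beside 30.1% and 29%. Their median log2 fold changes were 0.059 and 0.13.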

Additional observations from a re-analysis of the deposited data

Results flagged for a closer look

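In 16 of the 144 groups of 5 libraries examined (11.1%), 1 library stood far from the other 4 in the level of a member, by Dixon's criterion. Independent, normally distributed values meet it in about 1 of 20 groups, but the members share the same libraries. The share over all accessions was not computed, so the count is not a result about the members. Of the 16 flags, 7 were cortex standard library 4, high in each case: P3h3 at 194 CPM, Kdm4a at 111 CPM, Phf8 at 69.2 CPM, P4ha2 at 76.9 CPM, Kdm2a at 182 CPM, Kdm5a at 91.5 CPM and Plod1 at 63.9 CPM. This is the library with 1437 CPM of meningeal and fibroblast markers, and the part of those cells in the 7 values was not tested. In the accumbens standard group, library 3 was high for Kdm8 at 32.5 CPM and library 5 for Fto at 100.3 CPM. In the accumbens low-iron group, library 4 was low for Hif1an at 13.4 CPM and high for Plod3 at 51.4 CPM. In the cortex standard group, library 1 was low for Kdm5b at 119.8 CPM, beside 133.3 to 137.3 CPM in the other 4. In the cortex low-iron group, library 2 was high for Egln3 at 58.3 CPM, library 3 for Phf2 at 99.4 CPM and for P3h1 at 21.6 CPM, and library 1 for Hspbap1 at 8.14 CPM.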

How the results depend on the processing

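Over all alternatives run, the count of members past an adjusted p of 0.05 was 0 in both diet comparisons and the interaction. No member that passed between regions under a diet, before any alternative was applied, changed sign under that diet. Between regions, leaving out each library in turn gave 16 to 20 passing members under the standard diet and 20 to 24 under the low-iron diet. Beside these, 4906 to 6293 of all accessions passed (11647 to 11709 tested) under the standard diet. Under the low-iron diet 6245 to 6534 did (11274 to 11305 tested). With library size as a covariate 13 of 35 members passed under the low-iron diet, against 21, beside 3957 of 11220 accessions, against 6630. The cause was not tested, and library size moves with region. The members' median between regions was 0.18 without cortex standard library 4 and accumbens standard library 4, against 0.12. Under the low-iron diet it was 0.16 with no filter and 0.15 with DESeq2, which test more accessions, and 0.15 to 0.23 with each library left out.

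Egln2, Hif1an and Fto changed sign under some alternatives, at values close to 0. Other members that did not pass also changed sign, some by more. Kdm6b between regions under the standard diet ranged from -0.35 to 0.08, and Plod1, which passed in 2 of 17 settings there, from -0.17 to 0.29. Jmjd6 and Tmlhe for diet in the accumbens ranged from -0.23 to 0.06 and from -0.11 to 0.27. For diet in the accumbens, Fto gave -0.000503 with RLE, -0.0039 with no filter, -0.0066 with library size as a covariate and -0.025 to 0.025 with a library left out; Egln2 gave -0.0252 to 0.0805 and Hif1an -0.064 to 0.053 with a library left out. For regions, Fto gave -0.064 to 0.0053 under the standard diet with a library left out and 0.070 under the low-iron diet with library size as a covariate. Hif1an under the low-iron diet gave -0.00916 with RLE, -0.0069 with no filter, -0.013 with DESeq2, -0.0027 with the replicate block, -0.021 with library size as a covariate and -0.034 to 0.044 with a library left out.

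The labels do not tie libraries of the same number in different groups to each other, and they were not treated as pairs. Correlations of their deviations ranged from -0.044 to 0.073 for the regions under the standard diet, 0.022 to 0.14 under the low-iron diet, -0.21 to 0.16 for the diets in the accumbens and -0.31 to 0.16 in the cortex, and 3, 2, 1 and 1 of 5 libraries correlated best with their own number. With the replicate block 17 members passed between regions under the standard diet, against 18, with Kdm2a lost (edgeR adjusted p = 0.0725). Under the low-iron diet 21 passed, and 0 did in the diet comparisons and the interaction. Of all accessions, 5188 of 11612 passed between regions with that block under the standard diet and 6817 of 11220 under the low-iron diet.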
